A study of Homo sapiens with 15 samples.

Results

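The mRNA levels of microtubule proteins were followed in tumors that carried MOAP-1, changed forms of MOAP-1, RASSF1A, or empty vector. The set holds 10 genes of 19483 named on the array. They are the microtubule-associated proteins MAP1S, MAP1A, MAP1B, MAP4, and MAP7, the alpha-tubulins TUBA1A and TUBA1B, the beta-tubulins TUBB and TUBB3, and the gamma-tubulin TUBG1. Members were chosen by name, through the RefSeq transcript that the array design gives for each probe, and 19 probes of 34127 matched. All 19 probes were well above background on all 15 arrays, so none was lost to the filter that left 30570 probes for testing. The tumors were HCT116 cells, a human colon carcinoma line, grown in athymic nude mice after transient transfection, each tumor on its own single-color array. Each of 5 constructs had 3 tumors, namely Myc-tagged MOAP-1, MOAP-1 with a lysine replaced by arginine (K264R or K278R), HA-tagged RASSF1A in pCDNA3, and empty pCDNA3, called vector here. The tumors grew from transfected pools and not from clones, and the cells also hold their own MOAP1 and RASSF1 genes. The arrays report a log2 signal relative to the 75th percentile of the same array, which is the scale of every level and difference given here. The question the design poses for these genes is whether a construct moves the mRNA of the proteins that build or bind microtubules.

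Microtubules are hollow polymers of alpha- and beta-tubulin dimers that carry cargo in interphase and form the spindle in mitosis. New microtubules grow from ring-shaped complexes built on gamma-tubulin, and microtubule-associated proteins bind along the polymer and stabilize it or link it to other structures. MAP1S binds microtubules and is a known partner of RASSF1A, a tumor suppressor that itself lies along microtubules, and MOAP-1 joins RASSF1A in death signaling through the protein Bax. Alpha- and beta-tubulin genes have near-identical copies, and unpolymerized tubulin lowers the stability of tubulin mRNAs in mammalian cells. The probe sequences are not used here, so a tubulin probe may also read a close copy, and each tubulin value is uncertain in that sense.

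Arrays differed in signal, slide, and day, and these differences in part followed the constructs. The 75th percentile of the signal ran from 496.3 to 1402 over the 15 arrays, and 85.1% to 93.1% of the spots lay well above background. That percentile was 1176 to 1402 in the K264R arrays and 631 to 768 in the vector arrays. The images of the vector and RASSF1A arrays were extracted on another day than those of the MOAP-1, K264R, and K278R arrays, so extraction day and construct cannot be told apart where these 2 sets are compared. The vector tumors and RASSF1A tumor 3 shared a slide, as did MOAP-1 tumor 2 and the K278R tumors, and the scanner read RASSF1A tumors 1 and 2 on a separate day from all others. The K264R tumors lay on a slide of their own. No tumor with a form of MOAP-1 shared a slide with a vector tumor, so slide and construct cannot be told apart in those comparisons either. K278R tumor 2 had the lowest 75th percentile (496.3) and the lowest mean correlation with its own construct (r = 0.9864). MOAP1, read by probe A_23_P205389, was higher in MOAP-1 than in vector tumors by 0.86 (standard error 0.14, limma adjusted p = 0.000841). Its change was 0.74 in K278R tumors (adjusted p = 0.00503) and 0.55 in K264R tumors (adjusted p = 0.00939), the latter not called. The study reported construct expression in culture for fewer days than the tumors grew. RASSF1 (A_23_P41066) was not measurably higher in the RASSF1A tumors (change -0.12, standard error 0.10, adjusted p = 0.671), and the files do not state whether either probe reads the introduced transcript. All 8 markers of colon epithelial cancer cells were well above background in every tumor.

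MAP1S, MAP1B, TUBA1A, and TUBB are shown by the DNA just before their start, because each was called in at least 2 of the 3 comparisons of a MOAP-1 form with vector. Each stretch is the 250 bases before the outermost RefSeq start of the gene (GRCh38.p14), read 5′ to 3′ on the strand of the gene, at chr19:17719230-17719479 (plus strand) for MAP1S, chr5:72107225-72107474 (plus strand) for MAP1B, chr12:49189081-49189330 (minus strand) for TUBA1A, and chr6:30720102-30720351 (plus strand) for TUBB. Capitals mark exact matches on either strand to the letters GGGCGG (the GC box), CCAAT (the CCAAT box), or TATAAA (the TATA box), and no matches overlapped in these 4 stretches.
MAP1S: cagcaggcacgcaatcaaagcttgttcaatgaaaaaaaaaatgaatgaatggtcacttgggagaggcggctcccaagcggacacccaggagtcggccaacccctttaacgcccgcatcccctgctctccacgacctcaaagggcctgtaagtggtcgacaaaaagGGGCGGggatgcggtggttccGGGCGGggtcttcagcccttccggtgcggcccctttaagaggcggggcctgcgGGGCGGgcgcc
MAP1B: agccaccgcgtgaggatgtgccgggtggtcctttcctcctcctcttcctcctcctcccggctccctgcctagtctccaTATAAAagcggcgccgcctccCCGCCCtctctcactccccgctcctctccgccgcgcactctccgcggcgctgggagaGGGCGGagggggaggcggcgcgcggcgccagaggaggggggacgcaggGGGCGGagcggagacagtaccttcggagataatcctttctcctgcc
TUBA1A: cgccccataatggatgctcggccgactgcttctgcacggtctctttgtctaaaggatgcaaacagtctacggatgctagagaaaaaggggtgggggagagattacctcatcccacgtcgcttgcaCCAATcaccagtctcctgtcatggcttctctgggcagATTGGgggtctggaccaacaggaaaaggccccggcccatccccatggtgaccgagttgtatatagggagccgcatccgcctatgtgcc
TUBB: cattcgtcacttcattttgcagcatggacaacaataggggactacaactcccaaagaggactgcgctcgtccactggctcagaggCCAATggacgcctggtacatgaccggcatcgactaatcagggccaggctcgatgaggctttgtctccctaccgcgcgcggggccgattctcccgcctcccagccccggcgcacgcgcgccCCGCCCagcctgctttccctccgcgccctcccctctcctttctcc
MAP1S held 3 GC boxes and no match to the other letters. MAP1B held 3 GC boxes and 1 TATA match, TUBA1A held 2 CCAAT boxes, and TUBB held 1 GC box and 1 CCAAT box. Over all 10 members, 8 stretches held a GC box, 5 a CCAAT box, and 1 a TATA match. Over 35116 stretches of the same length in the RefSeq table, the shares were 42.6%, 32.0%, and 10.7%. Those stretches include starts other than the outermost of a gene, while the members were counted at the outermost only, so the 2 sets are not alike. A match describes these letters only and does not show that a factor binds there.

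MAP1S fell and TUBB and MAP1B rose in the MOAP-1 tumors relative to vector. Of the 19 member probes, 3 were called higher and 1 lower, where a call means a limma adjusted p below 0.05 over all 30570 probes and a change of at least 1.5-fold. These are 15.8% and 5.26% of the member probes, and 9.91% and 6.69% of all probes were called higher and lower. K264R tumors had 5 member probes higher (26.3%, against 9.25% of all probes) and 3 lower (15.8%, against 10.2%). K278R tumors had 3 higher (15.8%, against 7.71%) and 1 lower (5.26%, against 3.2%). At the brightest probe of each gene, the median change of the 10 members was -0.0005 in MOAP-1, 0.0004 in K264R, and -0.05 in K278R tumors, where the medians of all genes were 0.01, -0.02, and 0.04.

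**Figure D1:**
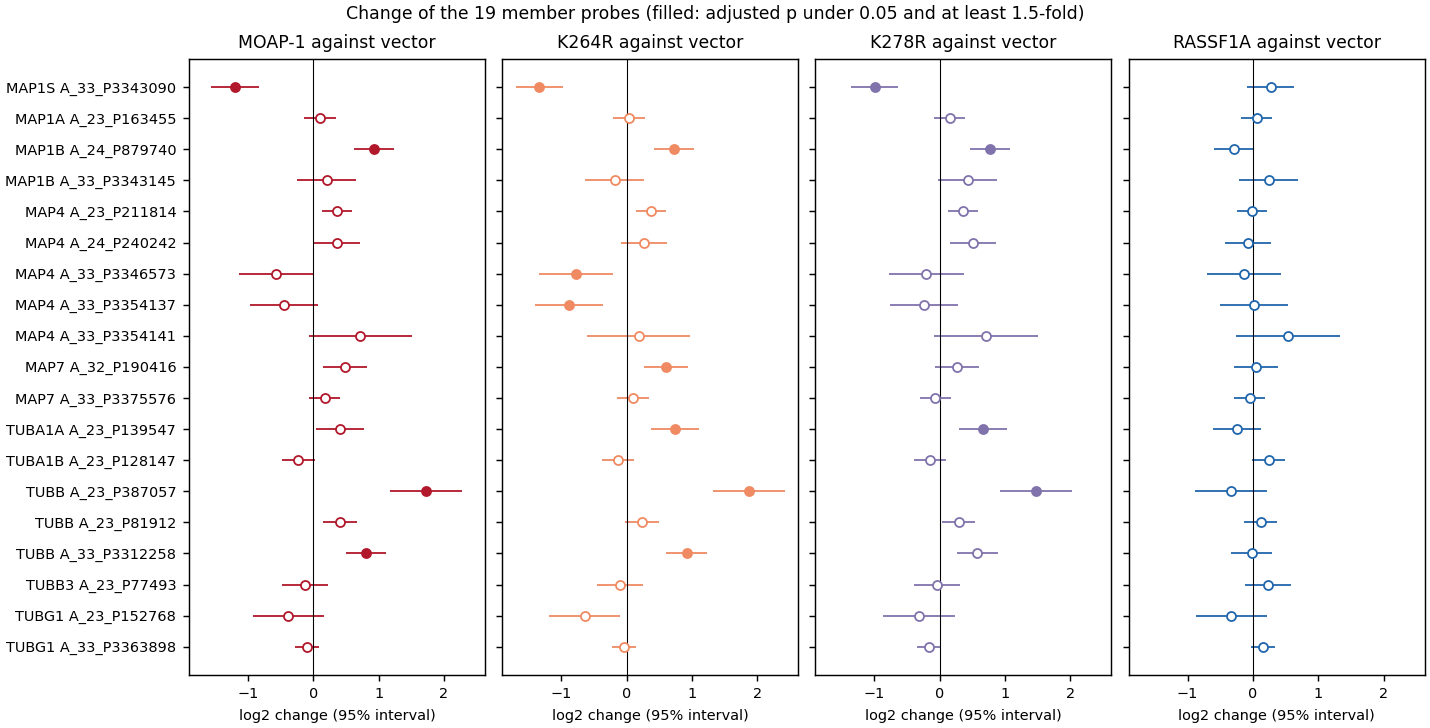
Change of each of the 19 member probes against vector on the log2 scale (x axis, 95% interval) in MOAP-1, K264R, K278R, and RASSF1A tumors, 3 tumors per construct, with 1 row per probe. Filled points passed both thresholds. MAP1S lies to the left in the first 3 panels and MAP1B and the upper TUBB probe to the right, while no point is filled for RASSF1A.

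MAP1S links microtubules to partner proteins and is read by 1 probe, A_33_P3343090 (gene at chr19:17719480-17734513). MOAP-1 tumors had levels of 3.47, 3.54, and 3.67, against 4.84, 5.15, and 4.30 with vector. It was 3.40, 3.51, and 3.38 in K264R, 3.85, 3.78, and 3.67 in K278R, and 5.17, 5.07, and 4.87 in RASSF1A tumors. Every tumor with a form of MOAP-1 lay below every vector and RASSF1A tumor, and the vector tumors were the most scattered (SD 0.43, n = 3). The change against vector was -1.20 for MOAP-1 (standard error 0.17, limma adjusted p = 0.000369), a 2.30-fold lower signal. It was 2.52-fold lower in K264R tumors (-1.33, standard error 0.17, adjusted p = 0.000145) and lower by a similar amount in K278R tumors (-0.997, adjusted p = 0.00318). Slide and extraction day differed along with the construct in all these comparisons with vector. RASSF1A tumors did not pass the test (0.27, 95% interval -0.09 to 0.63, adjusted p = 0.526). The study had selected MAP1S from the MOAP-1 and vector tumors of these same arrays, so its fall in that comparison is not independent evidence. The K278R call was lost when only the arrays of these constructs entered the fit (adjusted p = 0.0502) and with a normexp background model, another way to take local background off the signal (-0.70, adjusted p = 0.220). It held in that model without 17 spots of extreme local background.

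The only MAP1S probe had close companions on the array, and without its sequence it could not be checked that it reads MAP1S alone. Over the 15 arrays its Pearson r was 0.9985 with CCM2L, 0.9984 with APOL1, 0.9981 with NFKBIL1, 0.9978 with KLF14, and 0.9971 with ELFN1, the 5 most alike of 21630 named probes. In all, 498 of these probes (2.3%) reached an r of at least 0.95. The 15 points share constructs, slides, and extraction days, so these values describe the pattern of the probe on these arrays and carry no test.

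MAP1A and MAP1B, the neuronal relatives of MAP1S, differed from it and from each other. MAP1B probe A_24_P879740 (gene at chr5:72107475-72209565) read -2.12, -2.22, and -2.24 in MOAP-1 tumors and -3.09, -3.05, and -3.22 in vector tumors. K264R tumors read -2.39, -2.27, and -2.51, K278R tumors -2.68, -2.33, and -2.02, and RASSF1A tumors -3.52, -3.46, and -3.26. All 9 tumors with a form of MOAP-1 lay above the 6 others. MAP1B rose 1.90-fold in MOAP-1 (0.93, standard error 0.14, limma adjusted p = 0.000565), 1.66-fold in K264R (adjusted p = 0.00171), and 1.71-fold in K278R tumors (adjusted p = 0.00419). The normexp background model turned the MOAP-1 change to -0.20 (adjusted p = 0.707) and the K278R change to -0.29 (adjusted p = 0.600) and left 0.02 in K264R (adjusted p = 0.979). In the same model without 17 spots of extreme local background on 3 arrays, the changes were 0.51 (adjusted p = 0.00543), 0.42 (adjusted p = 0.0314), and 0.28 (adjusted p = 0.0488), all under 1.5-fold. The second MAP1B probe, A_33_P3343145, lay between -6.40 and -5.18 on all arrays and did not follow the first (r = 0.11), with a MOAP-1 change of 0.21 (adjusted p = 0.477). MAP1A (A_23_P163455, gene at chr15:43510954-43531611) lay between -1.97 and -1.53 in every tumor, its groups overlapped, and the test across the 5 constructs was not passed (F test adjusted p = 0.741). Since MAP1A and MAP1B are genes of neurons, markers of nerve and glia were read beside them, with list means of -4.29 to -4.05 in MOAP-1 and -4.18 to -4.08 in vector tumors and 7 of 10 markers above background in each. Of the 7 tested, 0 were called higher and 1 lower in MOAP-1 tumors. Human fibroblast markers ranged more widely, from -3.91 to -1.25 in MOAP-1 and -5.00 to -3.19 in vector tumors, with 1 of 7 called higher in MOAP-1 tumors. Their median change against vector was 1.89 in MOAP-1, 0.56 in K264R, 1.70 in K278R, and 1.03 in RASSF1A tumors. Their part in the MAP1B result was not tested. The array probes are human and the tumors grew in mice, so how far the nerve, glia, and fibroblast markers read host cells is not known. In bulk tumors fewer cells of a type and less RNA per cell cannot be told apart.

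**Figure D2:**
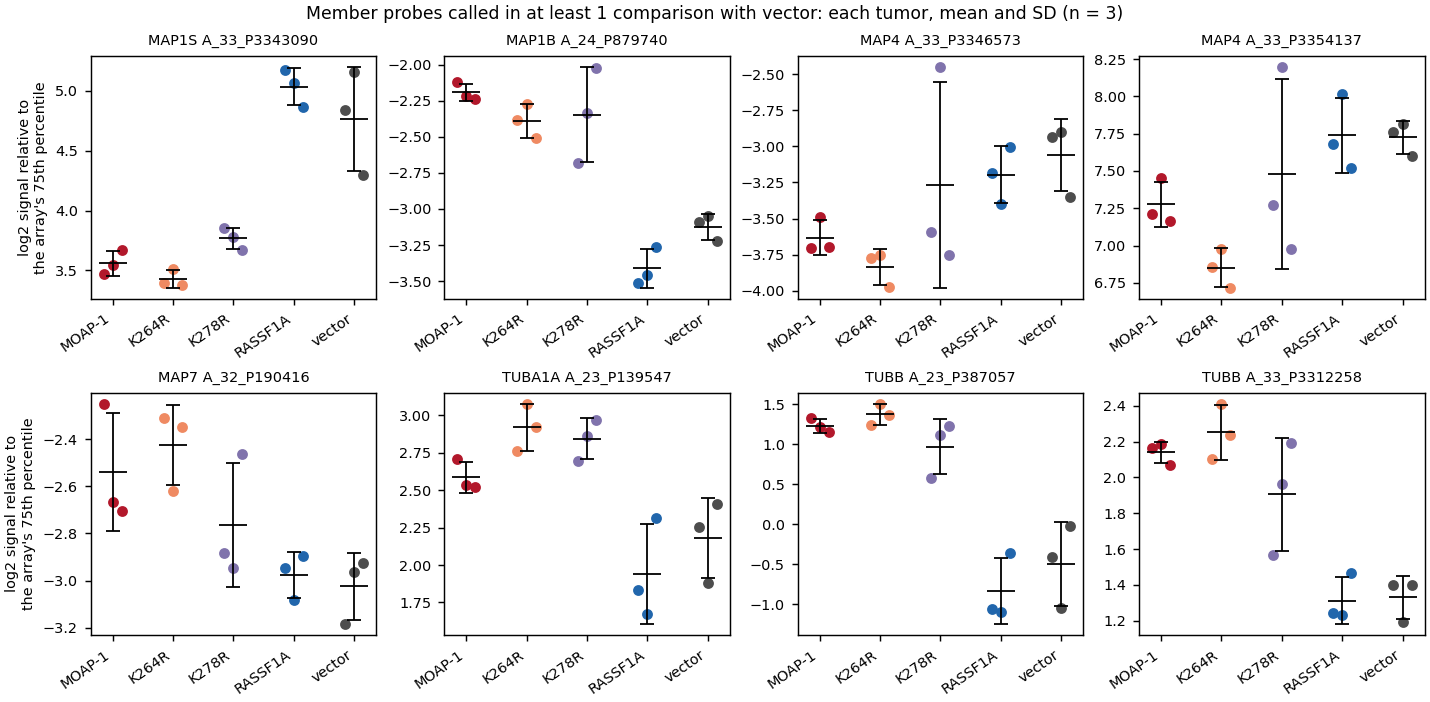
Log2 signal relative to the 75th percentile of the array (y axis, own range in each panel) in each of the 15 tumors, for the 8 member probes called in at least 1 comparison with vector, with mean and SD (n = 3). MAP1S is lower, and MAP1B and TUBB probe A_23_P387057 higher, in all 9 tumors with MOAP-1, K264R, or K278R than in the 6 vector and RASSF1A tumors, and K278R tumor 2 stands apart at both MAP4 probes.

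TUBB, a main beta-tubulin of dividing cells (gene at chr6:30720352-30725422), gave the largest rises among the members. Probe A_23_P387057 read 1.33, 1.22, and 1.15 in MOAP-1 and -0.41, -1.05, and -0.02 in vector tumors. K264R tumors read 1.25, 1.51, and 1.37, K278R tumors 0.58, 1.11, and 1.23, and RASSF1A tumors -1.05, -1.09, and -0.36. The lowest tumor with a form of MOAP-1 (0.58) lay above the highest of the others (-0.02). Its signal rose 3.31-fold in MOAP-1 (1.73, standard error 0.25, limma adjusted p = 0.000465), 3.66-fold in K264R (1.87, adjusted p = 0.000201), and 2.77-fold in K278R tumors (1.47, adjusted p = 0.00333). The probe A_33_P3312258 followed it closely (r = 0.96) with smaller rises, of 0.81 in MOAP-1 (adjusted p = 0.00135), 0.92 in K264R (adjusted p = 0.000448), and 0.57 in K278R, which stayed just under 1.5-fold (adjusted p = 0.0158). The third probe, A_23_P81912, read 1.97, 2.36, and 2.18 in MOAP-1 and 1.85, 1.72, and 1.73 in vector tumors, a change of 0.40 (adjusted p = 0.0213) that is 1.32-fold and under the fold threshold. The array design gives all 3 probes the same TUBB transcript, so the probes disagree on the size of the rise while their MOAP-1 changes share a direction.

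TUBA1A, an alpha-tubulin best known from developing neurons (gene at chr12:49184795-49189080), was called higher than vector in both changed forms of MOAP-1. Its probe A_23_P139547 read 2.76, 3.08, and 2.92 in K264R and 2.70, 2.86, and 2.97 in K278R tumors, against 2.25, 1.88, and 2.40 in vector tumors. The groups did not overlap, and the changes were 0.74 (standard error 0.17, limma adjusted p = 0.00484) and 0.66 (adjusted p = 0.0175). In MOAP-1 tumors it read 2.71, 2.53, and 2.52, also above every vector tumor, a change of 0.41 that missed the threshold (adjusted p = 0.0856). MOAP-1 tumors were not called different from K264R (-0.33, adjusted p = 0.487) or K278R tumors (-0.255, adjusted p = 0.687). RASSF1A tumors read 1.83, 1.67, and 2.32 (change -0.24, adjusted p = 0.574). Under the normexp model both calls were lost, at adjusted p = 0.0753 in K264R and 0.187 in K278R, with changes of 0.84 and 0.89. Both held in that model without the 17 spots of extreme local background. The K278R call was also lost without vector tumor 2 (adjusted p = 0.0864), without K278R tumor 3 (adjusted p = 0.0619), and when only K278R and vector entered the fit (adjusted p = 0.0581).

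TUBA1B, the broadly expressed alpha-tubulin next to it (gene at chr12:49127782-49131395), differed among the 5 constructs in the F test (adjusted p = 0.0313), but in none of the 4 comparisons with vector. Probe A_23_P128147 read 6.14 to 6.19 in MOAP-1 and 6.51 to 6.83 in RASSF1A tumors, with vector tumors between at 6.31, 6.38, and 6.504. TUBB3, the beta-tubulin of neurons and of some carcinomas (gene at chr16:89921925-89936097), lay between 3.20 and 3.95 over all tumors, and its constructs overlapped (F test adjusted p = 0.331). TUBG1 (gene at chr17:42609683-42615238) forms the core of the ring that starts microtubules. Its probe A_33_P3363898 lay between 2.48 and 2.99, with a MOAP-1 change of -0.10 (95% interval -0.29 to 0.09, limma adjusted p = 0.402). The other TUBG1 probe, A_23_P152768, ranged from 1.96 to 3.19, and the 2 did not track each other (r = -0.06). Its change was -0.39 in MOAP-1 tumors (adjusted p = 0.261). In K264R tumors it was -0.64 (95% interval -1.19 to -0.10, adjusted p = 0.064), not called, where A_33_P3363898 changed by -0.03. At A_23_P152768 the K264R tumors (2.24 to 2.50) lay below the vector tumors (2.67 to 3.19).

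MAP4, the main microtubule-associated protein outside neurons (gene at chr3:47850695-48088848), has 5 probes that disagreed in direction. Probe A_33_P3354137 read 6.85, 6.98, and 6.72 in K264R and 7.76, 7.81, and 7.60 in vector tumors, with no overlap. It fell 1.84-fold there (-0.88, standard error 0.24, limma adjusted p = 0.0129), but the call was lost without K264R tumor 3 (adjusted p = 0.0501). With quantile normalization the change was -0.12 (adjusted p = 0.203). That method gives the brightest probes nearly the same value on every array. This probe lay at the 99.99 percentile of brightness, so that method cannot judge its change. Probe A_33_P3346573 fell in the same comparison by 0.77 (standard error 0.26, adjusted p = 0.0363), a call that was lost without any K264R tumor and without vector tumor 1 or 2. On both probes K278R tumor 2 stood apart, at 8.20 and -2.45, against 7.27 and 6.97, and -3.60 and -3.76, in the other K278R tumors. Probe A_23_P211814 was higher in all 3 comparisons, by 0.36 in MOAP-1, 0.37 in K264R, and 0.35 in K278R (adjusted p = 0.0223, 0.0167, and 0.0334), which is below 1.5-fold each time. Probe A_24_P240242 changed by 0.36 in MOAP-1 (adjusted p = 0.113) and A_33_P3354141 by 0.72 (adjusted p = 0.153). These probes carry 3 different MAP4 transcripts in the array design. A_33_P3354137 and A_33_P3354141 carry the same transcript, yet their mean levels were 7.41 and -0.94 (r = 0.26). Without the probe sequences it could not be checked that either reads MAP4 alone. The 2 probes that fell, A_33_P3354137 and A_33_P3346573, tracked each other (r = 0.88). Each ran against A_23_P211814 (r = -0.62 for A_33_P3354137 and -0.50 for A_33_P3346573).

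MAP7, which binds microtubules in epithelial cells and recruits kinesin (gene at chr6:136342734-136550422), rose at 1 of its 2 probes in K264R tumors. Probe A_32_P190416 read -2.31, -2.62, and -2.35 there and -3.19, -2.97, and -2.92 in vector tumors, a 1.52-fold change (0.60, standard error 0.15, limma adjusted p = 0.00927). MOAP-1 tumors read -2.25, -2.66, and -2.70, a change of 0.49 (adjusted p = 0.0304) that fell short of 1.5-fold. Leaving out K264R tumor 1, K264R tumor 3, or vector tumor 1 ended the K264R call. The second probe, A_33_P3375576, changed by 0.10 in K264R tumors (adjusted p = 0.517).

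**Figure D3:**
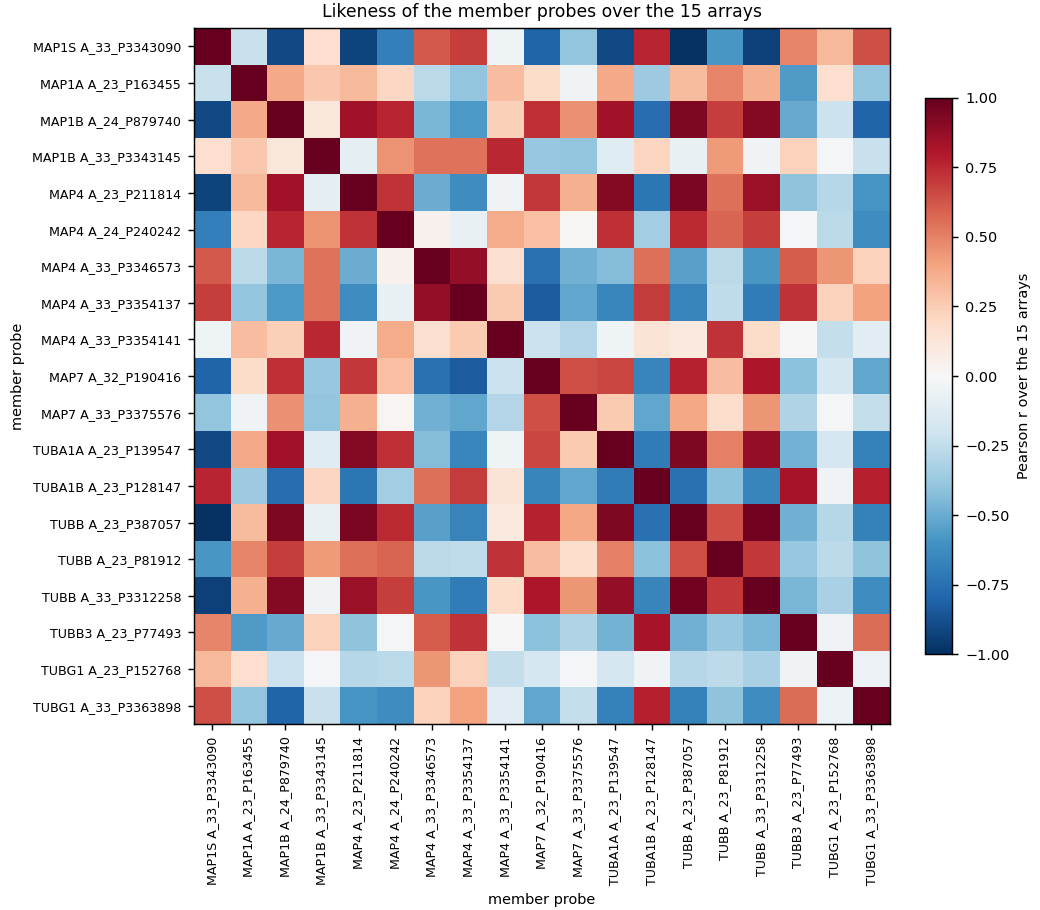
Pearson correlation of the log2 signal over the 15 arrays for every pair of the 19 member probes (both axes list the probes by gene, color runs from -1 to 1). The TUBB probes A_23_P387057 and A_33_P3312258 (r = 0.96), MAP1B A_24_P879740, TUBA1A, and MAP4 A_23_P211814 form a block of high values, while MAP1S runs against it.

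Several member probes ran alike over the tumors. TUBB A_23_P387057 had an r of 0.94 with MAP4 A_23_P211814, which stayed under 1.5-fold, 0.93 with TUBA1A, and 0.93 with MAP1B A_24_P879740, while MAP1S ran against it (r = -0.99). These points share constructs, slides, and extraction days. The test across all 5 constructs was passed by 10 member probes of 7 genes (52.6% of the 19, against 43.4% of all probes). The list of proliferation markers differed between constructs too. Its mean was 0.89 to 0.97 in MOAP-1, 1.02 to 1.101 in K264R, 0.59 to 0.90 in K278R, 0.70 to 0.74 in RASSF1A, and 0.44 to 0.57 in vector tumors. Of the 10 markers, 3 were called higher in MOAP-1, 4 in K264R, 1 in K278R, and 0 in RASSF1A tumors, and none was called lower. Every tumor with a form of MOAP-1 lay above every vector tumor on this list. RASSF1A tumors also lay above all vector tumors and within the range of K278R. All 10 proliferation markers were well above background in every tumor, and their part in the tubulin rise was not tested.

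**Figure D4:**
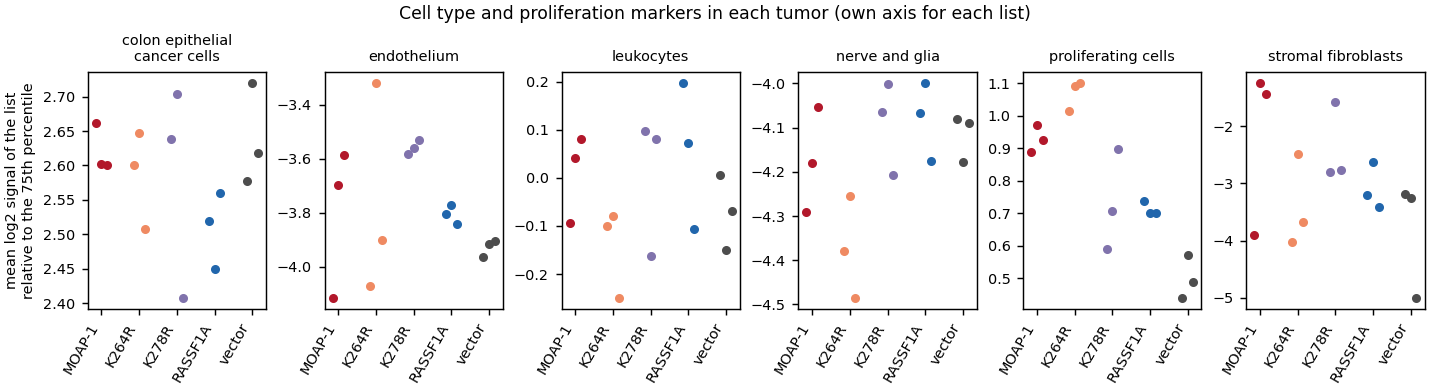
Mean log2 signal of each list of cell type or proliferation markers (y axis, own range in each panel) in each of the 15 tumors, by construct. The proliferation list is lowest in the 3 vector tumors (0.44 to 0.57), and the fibroblast list spreads widely within constructs.

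RASSF1A tumors were not told apart from vector tumors at any member. No member probe was called (0 of 19, with 0% of all probes called higher and 0% lower), none had an unadjusted limma p below 0.05, and 2 did by the methods' t-test (MAP1B A_24_P879740 and TUBG1 A_33_P3363898). Over all 30570 probes 3692 had an unadjusted p below 0.05. The count over all probes rested on RASSF1A tumor 3, the tumor on the vector slide: without it 260 probes were called higher and 1147 lower, though still 0 of the 19 members. With the slide as a block, which leaves RASSF1A tumor 3 to be set against the vector tumors of its slide, the MAP1S change was 0.10 and the TUBB A_23_P387057 change 0.14, in place of 0.27 and -0.34. The 95% interval for TUBB at that probe, -0.89 to 0.21, still holds a fall of 1.5-fold.

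Differences between MOAP-1 and its lysine-changed forms were not detectable at the members when all arrays had equal weight. Between MOAP-1 and K264R tumors 0 of 19 member probes were called (0.00327% of all probes were higher and 0% lower), and between MOAP-1 and K278R tumors 0 of 19 (0% and 0%). With array weights 1389 probes were called higher and 413 lower in MOAP-1 than in K264R tumors, among them 1 member probe, MAP4 A_33_P3354141. No member had an unadjusted limma p below 0.05 in either comparison without weights, and the methods' t-test gave 2 (TUBA1A and MAP4 A_33_P3354137) and 0. For MAP1S the difference was 0.13 against K264R (95% interval -0.23 to 0.50) and -0.21 against K278R (-0.57 to 0.16). For TUBB A_23_P387057 it was -0.14 (-0.69 to 0.41) and 0.26 (-0.29 to 0.81), so a difference of 1.5-fold lies within both intervals of the TUBB probe and outside those of MAP1S. With the slide as a block the MAP1S difference against K278R was -0.23.

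MOAP-1 and RASSF1A tumors, which like MOAP-1 and vector tumors share no slide, differed at 5 member probes. Of the 19, 4 were higher in MOAP-1 (21.1%, against 13.1% of all probes) and 1 lower (5.26%, against 8.15%). MAP1S was 2.78-fold lower (-1.47, standard error 0.17, limma adjusted p = 5.56e-05), TUBB A_23_P387057 4.19-fold higher (2.07, adjusted p = 7.84e-05), and MAP1B A_24_P879740 2.33-fold higher (1.22, adjusted p = 5.76e-05). This comparison and that with vector share the MOAP-1 arrays.

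Other genes of the microtubule system were read at the brightest probe of each gene. Over all 18003 genes so read, 9.17% were called higher and 5.83% lower in MOAP-1, 9.45% and 8.93% in K264R, 6.59% and 2.97% in K278R, and 0% and 0% in RASSF1A tumors against vector. The 10 measured genes of the gamma-tubulin ring complex had 1 higher and 1 lower in MOAP-1 tumors, with a median change of 0.38, where the median of all genes was 0.01. TUBGCP5, a ring subunit, rose 1.41 in MOAP-1 (standard error 0.18, limma adjusted p = 0.000238), 1.28 in K264R (adjusted p = 0.000216), and 1.01 in K278R tumors (adjusted p = 0.00356). TUBGCP6, another subunit, was the second ring gene called in K278R tumors (0.61, adjusted p = 0.0175), named after its value was seen. MZT2B, a small protein that recruits the ring, fell by 0.68 in MOAP-1 (adjusted p = 0.000517) and by 0.73 in K264R tumors (adjusted p = 0.000243). With quantile normalization these changes were -0.39 and -0.42, both under 1.5-fold, and the normexp model also ended both calls. Among 15 other tubulins, TUBG2, the close copy of TUBG1, rose 0.76 in MOAP-1 (adjusted p = 0.00809), 0.77 in K264R (adjusted p = 0.00612), and 0.74 in K278R tumors (adjusted p = 0.0154, lost without vector tumor 2), while TUBA3D, an alpha-tubulin known from testis, fell by 0.63 in MOAP-1 (adjusted p = 0.00129), a call lost without MOAP-1 tumor 1 or vector tumor 1, and by 0.77 in K264R tumors (adjusted p = 0.000284). TUBB2B had the widest scatter, with a K278R change of 2.46 that did not pass (standard error 1.03, adjusted p = 0.102), and it is named here after its value was seen.

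Among 20 other microtubule-associated proteins, 2 were higher and 0 lower in MOAP-1 tumors, with a list median of 0.01. MTUS1, a microtubule-binding tumor suppressor candidate, lay between -2.23 and -2.06 in vector and between -0.71 and -0.33 in MOAP-1 tumors (change 1.63, standard error 0.27, limma adjusted p = 0.000912). It rose by 2.03 in K264R tumors (adjusted p = 0.000185). Its level in K278R tumors, -1.65 to -0.56, lay above the vector tumors and overlapped the MOAP-1 tumors. The K278R change was 0.94 (adjusted p = 0.0282), a call lost without K278R tumor 3 or any vector tumor. The other gene called was TPX2, a spindle assembly factor (0.78 in MOAP-1, adjusted p = 0.00369), named after its value was seen. Of 17 plus-end and catastrophe factors, 1 was called, CKAP5, a polymerase that lengthens microtubules, which rose 0.67 in MOAP-1 (adjusted p = 0.00112, below 1.5-fold without MOAP-1 tumor 1) and 0.80 in K264R tumors (adjusted p = 0.000264). Among 13 tubulin folding factors VBP1, a prefoldin subunit, rose 0.88 in MOAP-1 (adjusted p = 0.0409), a call lost without any of the 6 MOAP-1 and vector tumors, and 1.31 in K264R tumors (adjusted p = 0.00473). Of 25 tubulin modification and severing enzymes, FIGNL1 of the severing family rose 0.97 in MOAP-1 (adjusted p = 0.00756) and 1.39 in K264R tumors (adjusted p = 0.000673). AGBL5, which removes glutamates from tubulin, rose 0.93 in MOAP-1 (adjusted p = 0.0133), 0.88 in K264R (adjusted p = 0.0148), and 1.04 in K278R tumors (adjusted p = 0.0127, lost without vector tumor 2). AGBL3, of the same family, fell by 0.72 in K264R tumors (adjusted p = 0.00152), a call lost with quantile normalization (-0.57, under 1.5-fold) and with the normexp model (adjusted p = 0.118). Under the normexp model the rises of TUBGCP5 in all 3 comparisons, of TUBG2 in MOAP-1 and K278R, of FIGNL1 in MOAP-1 and K264R, and of AGBL5 in K278R turned to values below 0. Without the 17 spots these changes were above 0 again, from 0.19 for FIGNL1 in MOAP-1 to 0.58 for TUBGCP5 in MOAP-1 tumors, and under the fold or p threshold. None of these genes was called in RASSF1A tumors.

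**Figure D5:**
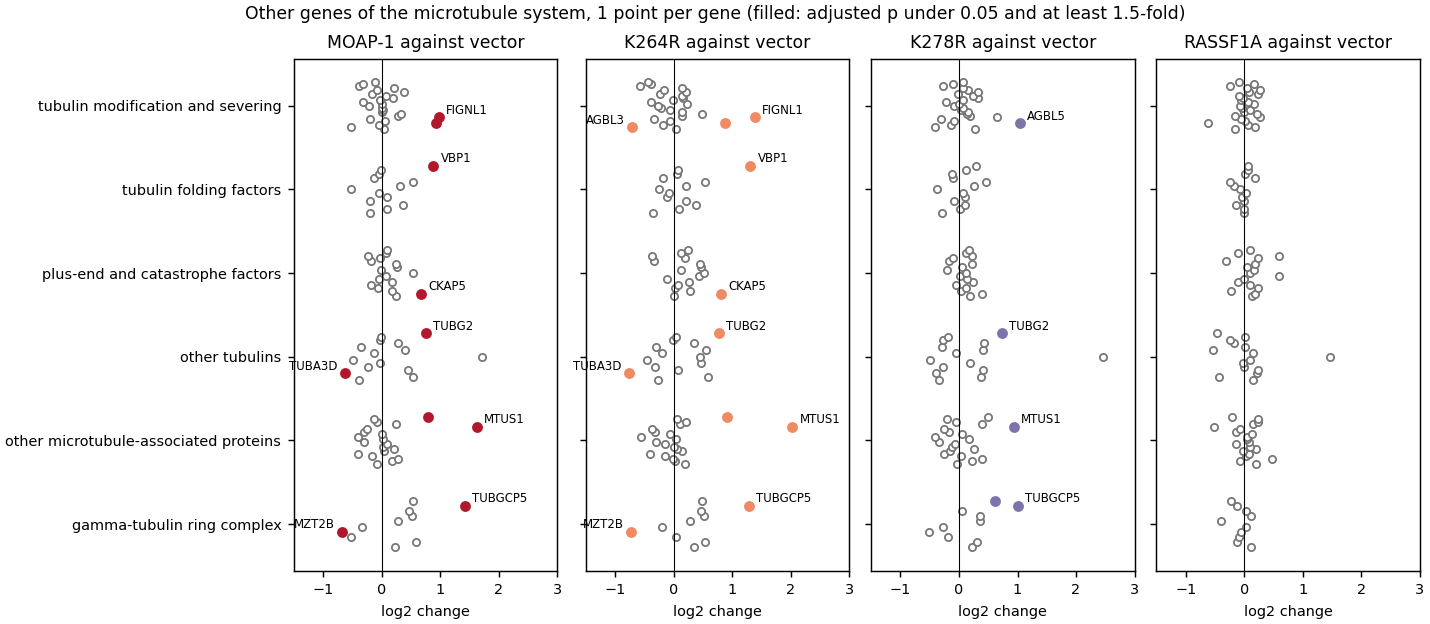
Log2 change against vector (x axis) of each gene of 6 further microtubule lists (y axis), at its brightest probe, in MOAP-1, K264R, K278R, and RASSF1A tumors. Filled points passed both thresholds and named ones are the largest rise or fall of their list, and most points lie near 0 with a few rises such as MTUS1 (1.63 in MOAP-1) and TUBGCP5 (1.41).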

How the data were processed

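Gene expression was measured on 15 single-color Agilent arrays of HCT116 xenograft tumors, with 3 tumors for each of 5 constructs. The authors deposited the Agilent Feature Extraction output of each array, in which the processed signal is a background-corrected intensity not scaled between arrays. Submitters' notes name version 9.1 of that software and the file headers 10.5.1.1. The authors also deposited log2 values scaled in GeneSpring, used here only as an alternative, because 7 of its 15 columns matched another array of the same construct better than their own.

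Intensities of 43118 spots were log2-transformed without spots marked as outliers, shifted to the 75th percentile of each array, and averaged by probe. Probes entered the test if the 3 tumors of any construct all read them well above background. Genes were named through the RefSeq table of GRCh38.p14 (25422 of 34127 probes, 74.5%). The 15 arrays entered a single linear model in limma 3.58.1 under R 4.3.3 (construct as the only term, 10 residual degrees of freedom, Benjamini-Hochberg adjustment over all probes), and the step was tested on simulated data. The labels do not say that tumors came from separate mice, so p values measure only the spread between these tumors. The number of arrays limits the precision.

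Members, lists, and rules were chosen with earlier results of these data known. Text names every member probe, MOAP1 and RASSF1, the called gene with the largest rise and fall of each further list in each comparison with vector, and the 5 probes most like MAP1S. Alternatives were other scalings, background models, filters, blocks, array weights, tests, and the loss of each tumor.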

Additional observations from a re-analysis of the deposited data

Results flagged for a closer look

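At 5 member probes the change against vector differed between MOAP-1 and RASSF1A tumors by a test of the difference itself (limma, adjusted over all probes, at least 1.5-fold). The differences, MOAP-1 minus RASSF1A on the log2 scale, were -1.47 for MAP1S A_33_P3343090, 1.22 for MAP1B A_24_P879740, 0.65 for TUBA1A A_23_P139547, 2.07 for TUBB A_23_P387057, and 0.83 for TUBB A_33_P3312258. The TUBA1A difference missed the threshold with the scan day as a block (0.27), with the normexp background model (adjusted p = 0.129), and without RASSF1A tumor 2 (below 1.5-fold), and the MAP1B difference missed it under that model (adjusted p = 0.420). Extraction day, slide, and construct cannot be told apart here.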

How the results depend on the processing

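Of 21 member changes that were called, 9 were called under every alternative fitted with limma: those of MAP1S in MOAP-1 and K264R tumors against vector and in MOAP-1 against RASSF1A, and those of TUBB A_23_P387057 and A_33_P3312258 in the same 3 comparisons. Under the normexp background model 9 of 21 were kept, and the median change of all probes moved to -0.53 in MOAP-1, -0.31 in K264R, and -0.46 in K278R against vector. The member counts under it were 3 in K264R, 0 in K278R, 3 in MOAP-1 against RASSF1A, and 4 across the 5 constructs. Of all probes it called 919, 1, 2260, and 2007 in the same order. It turned MAP1B A_24_P879740 to -0.20 in MOAP-1 and -0.29 in K278R tumors, TUBGCP5 to -0.35 in MOAP-1, -0.0004 in K264R, and -0.57 in K278R, TUBG2 to -0.0568 in MOAP-1 and -0.0596 in K278R, FIGNL1 to -0.96 in MOAP-1 and -0.0695 in K264R, and AGBL5 to -0.53 in K278R tumors. Without 17 spots of extreme local background on 3 arrays, the same model kept 17 of 21 calls, with medians of -0.15, -0.28, and -0.09, and none of these signs turned. The cause of the shift that remained was not tested. The further lists were put through the alternatives after their values were seen.

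At any fold the counts were 7 in MOAP-1, 7 in K278R, and 9 in MOAP-1 against RASSF1A. Of all 30570 probes, 9333, 6310, and 11394 were called in the same comparisons. In K278R tumors the methods' t-test after adjustment called 0 and a fit of only the 2 constructs 1, where 0 and 1172 of all probes were called. Array weights called 1 member probe (MAP4 A_33_P3354141) in MOAP-1 against K264R, and 1802 of all probes. The scan day as a block left 6 member probes across the 5 constructs, and 9366 of all probes. Leaving out 1 tumor gave 4 to 5 in MOAP-1, 5 to 8 in K264R (5 without K264R tumor 3), 3 to 7 in K278R (7 without K278R tumor 1), 4 to 5 in MOAP-1 against RASSF1A, 0 to 0 in the other 3 comparisons, and 6 to 12 across the 5 constructs (6 without K264R tumor 1 or 3). Of all probes, 5171 were called in K264R without K264R tumor 3, and 3172 in K278R without K278R tumor 1. Across the 5 constructs 10918 were called without K264R tumor 1 and 10610 without K264R tumor 3. Quantile normalization divided the calls over all probes differently, with 2304 higher and 2422 lower in MOAP-1, in place of 3030 and 2045, and 1368 and 1296 in K278R, in place of 2357 and 978.

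Replicate numbers were not taken as pairs in the main fit, and the values do not settle whether they pair the tumors. Of 30 same-numbered pairs, 15 had a correlation over 0.1. The mean correlation was 0.06 for the same number and -0.03 for other numbers, and 9 tumors were closest to their own number. With the replicate block the counts were 4 in MOAP-1, 8 in K264R, 4 in K278R, 0 in RASSF1A, 5 in MOAP-1 against RASSF1A, 0 and 0 against K264R and K278R, and 10 across the 5 constructs, and it kept 21 of 21 called member changes. Of all probes it called 5246 in MOAP-1, 6044 in K264R, 3556 in K278R, and 0 in RASSF1A tumors against vector. MOAP-1 against RASSF1A had 6576, MOAP-1 against K264R 1 and against K278R 0, and the test across the 5 constructs 13013.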
